A study of Homo sapiens with 6 samples.

Results

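The RNA levels of 9 genes of the ETS fusions of prostate cancer were followed across 6 RNA-seq libraries. They are 3 genes known as 5′ fusion partners, TMPRSS2, SLC45A3 and NDRG1, and 6 genes for ETS transcription factors, ERG, ETV1, ETV4, ETV5, ELK4 and SPDEF. They were chosen by name among the 21512 gene symbols of the deposited table, and all 9 were found in it. Of the 9, 8 averaged 20 or more counts per library and were tested, and ERG averaged fewer.

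Human prostate cancer cells of the lines BicR and LNCaP were compared, with 1 library for each line and treatment. The groups were BicR cells given 10 nM dihydrotestosterone (DHT, the most potent natural androgen), BicR cells given 1 µM bicalutamide (an antiandrogen), BicR cells given the vehicle, ethanol, and LNCaP cells given the same DHT, bicalutamide or ethanol. Every treatment lasted 24 h, and all 6 cultures had first spent 3 days in medium without phenol red and with 2.5% hormone-stripped serum, after growth in 10% serum. LNCaP is a long-established line that responds to androgen. The labels name BicR as prostate cancer cells and do not say how that line was made, or whether it is 1 clone.

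ETS factors share a DNA-binding domain that reads a GGAA core. In many prostate cancers a chromosomal rearrangement places an ETS gene behind the promoter of an androgen-driven gene such as TMPRSS2 or SLC45A3, so that androgen drives a factor the luminal cell otherwise hardly makes. ERG is the most frequent 3′ partner, and ETV1, ETV4 and ETV5, which form the PEA3 subfamily, are rarer ones. LNCaP carries no TMPRSS2-ERG fusion. In LNCaP the whole ETV1 gene is known to have moved into the MIPOL1 locus on another chromosome. ELK4 lies next to SLC45A3, and read-through transcripts that join both genes are known in prostate cancer. SPDEF is an ETS factor that luminal prostate cells make without any rearrangement.

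The promoters of SLC45A3 and ELK4 are shown because these genes are neighbours on one strand with unlike changes. That of SPDEF is shown because it had the highest mean RPKM, a level scaled by gene length, of the 6 ETS genes. Each line gives the 250 bases before the gene's start, 5′ to 3′ on the gene's strand, from RefSeq on GRCh38.p14, and the capitals mark the ETS core, GGAA or its reverse complement TTCC. Of the 9 genes, 5 had an entry in the promoter table.
SLC45A3 (chr1:205680510-205680759, minus strand): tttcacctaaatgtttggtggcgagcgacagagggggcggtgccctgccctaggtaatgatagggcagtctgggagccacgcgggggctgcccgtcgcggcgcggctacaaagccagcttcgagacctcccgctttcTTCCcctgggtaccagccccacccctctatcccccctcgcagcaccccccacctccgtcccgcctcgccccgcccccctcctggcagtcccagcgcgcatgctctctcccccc
ELK4 (chr1:205632012-205632261, minus strand): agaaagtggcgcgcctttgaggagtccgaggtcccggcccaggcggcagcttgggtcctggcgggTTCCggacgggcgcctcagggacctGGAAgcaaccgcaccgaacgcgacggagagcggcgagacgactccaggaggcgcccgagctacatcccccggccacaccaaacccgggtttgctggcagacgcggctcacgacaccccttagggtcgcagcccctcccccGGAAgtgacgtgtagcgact
SPDEF (chr6:34556330-34556579, minus strand): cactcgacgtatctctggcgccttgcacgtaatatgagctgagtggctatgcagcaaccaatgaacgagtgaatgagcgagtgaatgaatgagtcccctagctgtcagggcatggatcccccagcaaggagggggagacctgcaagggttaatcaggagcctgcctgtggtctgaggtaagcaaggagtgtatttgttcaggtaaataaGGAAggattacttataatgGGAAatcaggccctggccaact
The SLC45A3 window held 1 ETS core, the ELK4 window 3 and the SPDEF window 2, on either strand, and 92.7% of 34943 promoter windows of the same length held at least 1. Only the ELK4 window of these 3 held the longer ETS letters CCGGAAGT, which contain the core and stood in 3.39% of all windows. None of the 3 held AGAACA, the half-site of an androgen response element, which 12.4% of all windows held. None held the full androgen response element, AGAACA and TGTTCT with any 3 bases between them. Only 1 of the 34943 windows held it (0.00286%), so its absence from these 3 says little. ERG had 4 windows and ETV1 had 6, one for each annotated start. Among these, AGAACA stood in 2 overlapping windows of ETV1. These matches are letters in a window and were not measured as binding.

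Total counts ran from 42162723 to 55917016 per library. The unit of level is CPM, a count per library size scaled by TMM, and log2 fold changes come from an additive edgeR fit of line and treatment over all 6 libraries unless a ratio of 2 libraries is named. Nothing in the labels says that the libraries came from separate experiments. The p-values test additive effects of line or treatment against the departures of the 6 libraries from such effects, moderated over all genes. They measure no spread between repeat cultures, since each group is 1 library. Markers of luminal prostate cells were present in every library (8 of 8 markers), whereas the summed level of 4 basal markers was at most 1.07 CPM and that of 5 leukocyte markers at most 0.34 CPM. Endothelial markers summed to 3.15 to 10.8 CPM, most of it VWF, and fibroblast markers to 26.7 to 47.5 CPM, most of it COL1A1. The fibroblast marker COL1A2 was at 0 in every library. The LNCaP ethanol library stood apart, with 0.79% of its counts in HSPA5, a chaperone gene of the endoplasmic reticulum, against 0.131% to 0.164% in the other 5. The LNCaP bicalutamide library lay nearer to the BicR ethanol library (root-mean-square difference 0.37 in log2 CPM + 1 over 13885 genes) than to the LNCaP ethanol and LNCaP DHT libraries (0.43 each). For this reason the DHT responses of the 8 genes are given over the ethanol library and over the bicalutamide library of the same line.

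Of the 8 genes tested, 2 rose with DHT over both lines, TMPRSS2 and SLC45A3, and none fell. Over all 13885 genes tested, 0.158% rose and 0.0072% fell. Both are 5′ partners. The third 5′ partner, NDRG1, was high in the BicR DHT library only, and the 5 ETS factors tested did not pass. The median log2 fold change of the 8 genes was 1.11, against 0.01 over all genes tested. The genes were chosen with earlier results of these data known, and the 5′ partners as androgen-driven genes, so this median is a description only.

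TMPRSS2 encodes a transmembrane serine protease and is a classic androgen target. It stood at 1032 CPM in BicR DHT, 95.2 CPM in BicR bicalutamide and 114 CPM in BicR ethanol. In LNCaP it stood at 495 CPM under DHT, 92.97 CPM under bicalutamide and 99.8 CPM under ethanol. Both DHT libraries lay far above the 4 libraries without DHT, which spanned 92.97 to 114 CPM. The DHT level was 9.03 times the ethanol level in BicR (95% counting interval 8.79 to 9.28) and 4.96 times in LNCaP (4.81 to 5.11). Over the bicalutamide libraries the ratios were 10.8 in BicR and 5.32 in LNCaP. In the fit TMPRSS2 rose by 2.77 on the log2 scale with DHT (SE 0.29, edgeR adjusted p = 0.0135).

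SLC45A3, also called prostein, encodes a prostate-restricted solute carrier. It stood at 1594 CPM in BicR DHT, 225 CPM in BicR bicalutamide and 229.7 CPM in BicR ethanol. In LNCaP the levels were 384 CPM under DHT, 85.0 CPM under bicalutamide and 90.4 CPM under ethanol. Every BicR library was above the LNCaP library of the same treatment, and within each line the DHT library was the highest. The DHT level was 6.94 times the ethanol level in BicR (6.81 to 7.08) and 4.25 times in LNCaP (4.12 to 4.39), and 7.10 and 4.52 times the bicalutamide level of the same lines. SLC45A3 rose by 2.45 on the log2 scale with DHT (SE 0.26, edgeR adjusted p = 0.0135).

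For both genes the call depended on the bicalutamide libraries. Without the BicR bicalutamide library the edgeR adjusted p was 0.342 for both, and without the LNCaP bicalutamide library it was 0.338, with log2 fold changes of 2.74 for TMPRSS2 and 2.44 for SLC45A3 in either case. In each of these refits 0 genes passed in the whole table. Leaving out any of the other 4 libraries gave 2.26 to 3.21 for TMPRSS2 and 2.10 to 2.78 for SLC45A3. In those refits DHT or ethanol was held by a single line.

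NDRG1 encodes a stress-regulated protein linked to differentiation and to the response to low oxygen, and is a rarer 5′ partner of ERG. It stood at 766 CPM in BicR DHT, 149 CPM in BicR bicalutamide and 147 CPM in BicR ethanol. In LNCaP it stood at 181 CPM under DHT, 117 CPM under bicalutamide and 196 CPM under ethanol. Only the BicR DHT library was high, and in LNCaP the ethanol library was above the DHT one. The ratio of DHT over ethanol was 5.21 in BicR (5.08 to 5.34) and 0.924 in LNCaP (0.898 to 0.95). Over bicalutamide it was 5.15 in BicR and 1.55 in LNCaP, so the LNCaP direction depended on which library DHT was set against. The fit, in which disagreement between the lines is error, gave a log2 fold change of 1.21 (SE 0.50, edgeR adjusted p = 0.838). Without the LNCaP ethanol library it was 2.01, and without the LNCaP DHT library 2.18. Without the BicR DHT library it was 0.060, and without the BicR ethanol library 0.38. Each of these refits holds DHT or ethanol in a single line, so the agreement of the lines was not tested there and no p-value is given.

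**Figure D1:**
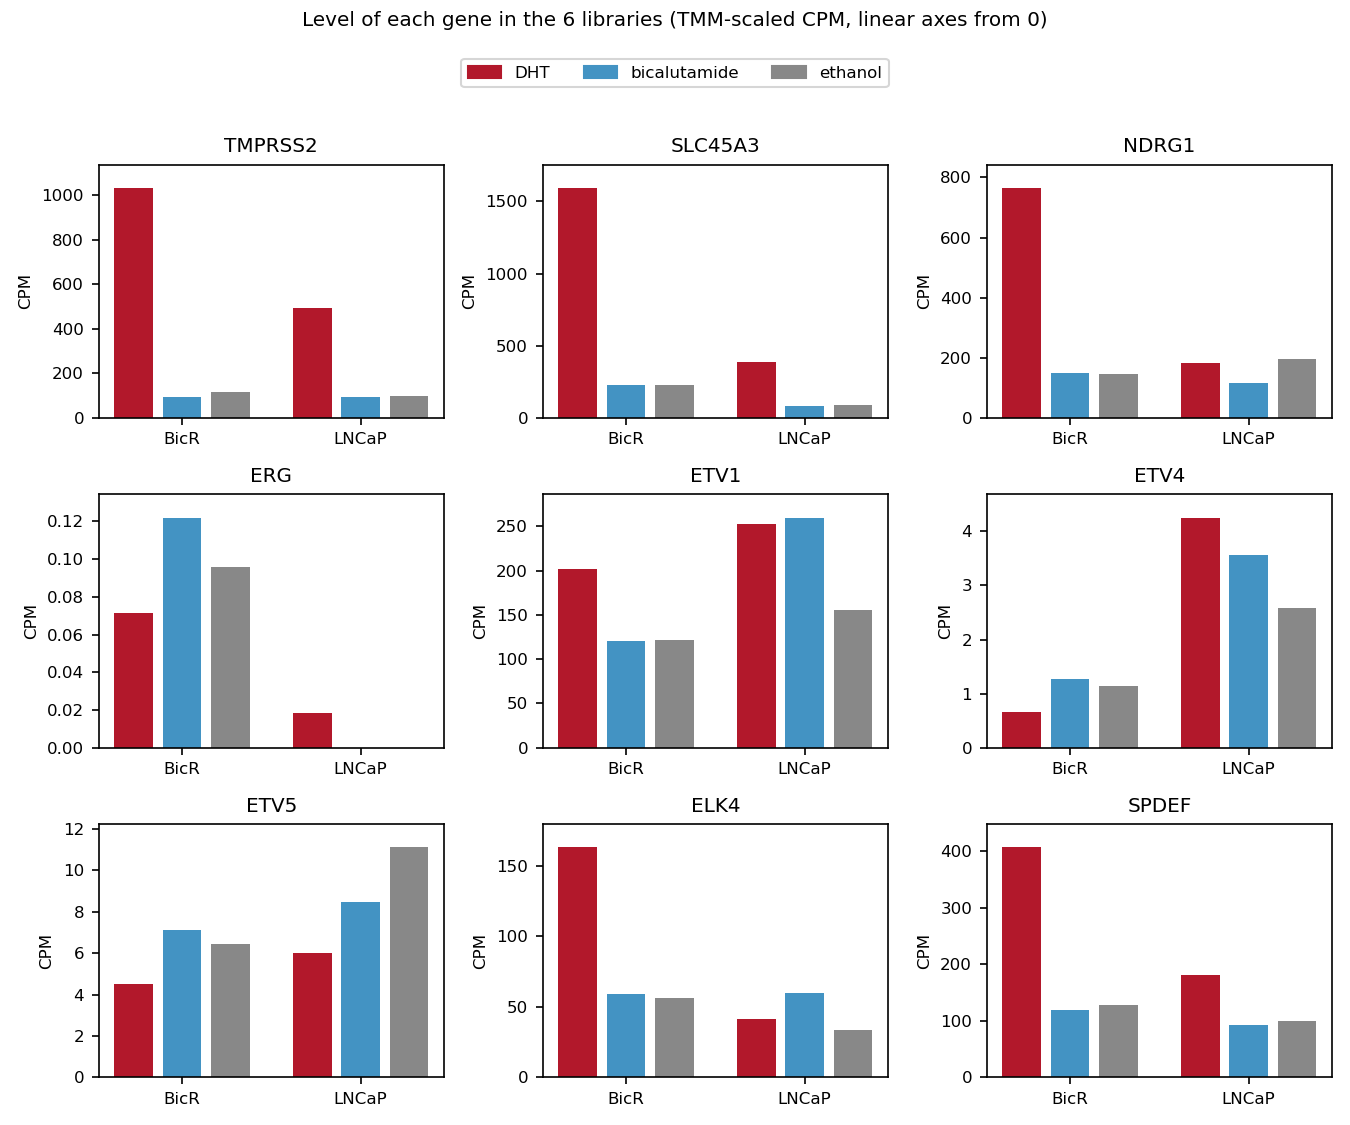
Level of each of the 9 genes in CPM (vertical axes, linear from 0, each gene on its own scale) in the 6 libraries, with BicR left of LNCaP and DHT, bicalutamide and ethanol as bars; each bar is 1 library and has no error bar. The DHT bars of TMPRSS2 and SLC45A3 stand above the others in both lines (1032 and 495 CPM for TMPRSS2), while NDRG1 and ELK4 are tallest in BicR DHT (766 and 163 CPM).

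SPDEF, the prostate-derived ETS factor, is known from mouse and human work for its part in secretory differentiation. It stood at 407 CPM in BicR DHT, 120.1 CPM in BicR bicalutamide and 128 CPM in BicR ethanol. In LNCaP the levels were 180.4 CPM under DHT, 92.8 CPM under bicalutamide and 100.4 CPM under ethanol. The DHT library was again the highest in each line, and both lay above all 4 others. The DHT level was 3.18 times the ethanol level in BicR (3.09 to 3.27) and 1.80 times in LNCaP (1.74 to 1.86), and 3.39 and 1.94 times the bicalutamide level. Against ethanol the log2 fold change of 1.28 did not pass (SE 0.25, edgeR adjusted p = 0.176). It was 1.66 without the LNCaP DHT library and 1.48 without the LNCaP ethanol library, refits that hold that treatment in BicR alone. Against the mean of ethanol and bicalutamide in the same fit SPDEF rose by 1.33 (SE 0.21, edgeR adjusted p = 0.0428), a comparison in which 0.324% of genes rose and 0.0288% fell. This call was lost without the BicR DHT library (0.90, edgeR adjusted p = 0.306), without the BicR bicalutamide library (1.22, edgeR adjusted p = 0.585) and without the LNCaP bicalutamide library (1.41, edgeR adjusted p = 0.415).

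ELK4, a ternary complex factor that works with serum response factor, stood at 163 CPM in BicR DHT, 59.4 CPM in BicR bicalutamide and 56.3 CPM in BicR ethanol. In LNCaP it stood at 41.3 CPM under DHT, 60.0 CPM under bicalutamide and 33.5 CPM under ethanol. The BicR DHT library was the highest of the 6, and in LNCaP the bicalutamide library was the highest. The ratio of DHT over ethanol was 2.90 in BicR (2.77 to 3.03) and 1.23 in LNCaP (1.16 to 1.31). Over bicalutamide it was 2.75 in BicR (2.63 to 2.87) and 0.689 in LNCaP (0.652 to 0.727). The log2 fold change of 1.02 over both lines did not pass (SE 0.39, edgeR adjusted p = 0.794). It was 0.094 without the BicR DHT library and 1.71 without the LNCaP DHT library, refits that hold DHT in the other line alone.

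SLC45A3 and ELK4 can be read side by side, since SLC45A3 lies upstream of ELK4 with no other protein-coding gene between them. In BicR both were highest under DHT, at 1594 and 163 CPM. In LNCaP SLC45A3 under DHT was 4.52 times its bicalutamide level and ELK4 was 0.689 times its own. Counts per gene symbol do not separate ELK4 transcripts from read-through transcripts that begin in SLC45A3, so their share in the ELK4 counts was not tested.

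ETV1 was the most abundant of the PEA3 genes in both lines. It stood at 202 CPM in BicR DHT, 121 CPM in BicR bicalutamide and 122 CPM in BicR ethanol. In LNCaP it stood at 253 CPM under DHT, 260.1 CPM under bicalutamide and 156 CPM under ethanol. LNCaP was above BicR under each treatment, and the DHT library was above the ethanol library in both lines by a like ratio, 1.66 in BicR (1.61 to 1.72) and 1.62 in LNCaP (1.58 to 1.67). Over bicalutamide, however, the ratio was 1.68 in BicR (1.62 to 1.73) and 0.972 in LNCaP (0.95 to 0.996). The log2 fold change with DHT was 0.72 (SE 0.24, edgeR adjusted p = 0.683), which did not pass.

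The LNCaP libraries were looked at for the genes around the site that holds the moved ETV1. MIPOL1 stood at 14.2 CPM in BicR DHT, 11.5 CPM in BicR bicalutamide and 12.0 CPM in BicR ethanol, and at 13.5, 17.1 and 8.22 CPM in LNCaP under the same treatments. In LNCaP the order of its levels was that of ETV1. In BicR both genes were highest under DHT, and their bicalutamide and ethanol levels lay close together. FOXA1, which lies in the same region and encodes a pioneer transcription factor, was at 914, 776 and 768 CPM in BicR and at 808, 723 and 603 CPM in LNCaP, in the same order of treatments. SLC25A21 also lies there. In that order it was at 5.03, 4.19 and 3.88 CPM in BicR and at 2.86, 3.55 and 1.74 CPM in LNCaP. None of the 3 genes of that region in the table passed for DHT, bicalutamide or line. Of 5 genes near the normal ETV1 locus in the table, 2 were tested and none passed.

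ETV4 and ETV5 were low. ETV4 had 28 counts in BicR DHT, 62 in BicR bicalutamide and 59 in BicR ethanol, or 0.668, 1.26 and 1.13 CPM. In LNCaP it had 231 counts under DHT, 186 under bicalutamide and 129 under ethanol, or 4.26, 3.57 and 2.58 CPM. The ranges of the lines did not overlap. The ratio of DHT over ethanol was 0.589 in BicR (0.362 to 0.939) and 1.65 in LNCaP (1.32 to 2.06), opposite in direction, and over bicalutamide it was 0.529 and 1.19, and the fit gave a log2 fold change of 0.10 (SE 0.42).

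ETV5 stood at 4.51 CPM in BicR DHT, 7.10 CPM in BicR bicalutamide and 6.45 CPM in BicR ethanol. In LNCaP it stood at 6.02 CPM under DHT, 8.45 CPM under bicalutamide and 11.1 CPM under ethanol. It was the only one of the 8 genes tested whose DHT library was the lowest in both lines. The ratio of DHT over ethanol was 0.699 in BicR (0.581 to 0.837) and 0.543 in LNCaP (0.472 to 0.623), and over bicalutamide it was 0.635 and 0.713. The log2 fold change of -0.71 did not pass (SE 0.26, edgeR adjusted p = 0.758).

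ERG was near 0 throughout. It had 3 counts in BicR DHT, 6 in BicR bicalutamide and 5 in BicR ethanol, and 1 in LNCaP DHT, 0 in LNCaP bicalutamide and 0 in LNCaP ethanol, 15 counts in all. A count of 0 allows up to 3 counts, which is 0.0575 CPM in LNCaP bicalutamide and 0.06 CPM in LNCaP ethanol. No fold change is given, since most libraries lay at or near that floor. In neither line did the DHT library hold more than 3 counts. ERG is also an endothelial factor. Among the endothelial markers, the cadherin gene CDH5 was at 0 in all 6 libraries, whereas VWF had 150 to 452 counts. PECAM1, TIE1, TEK and KDR had at most 12 counts in any library.

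**Figure D2:**
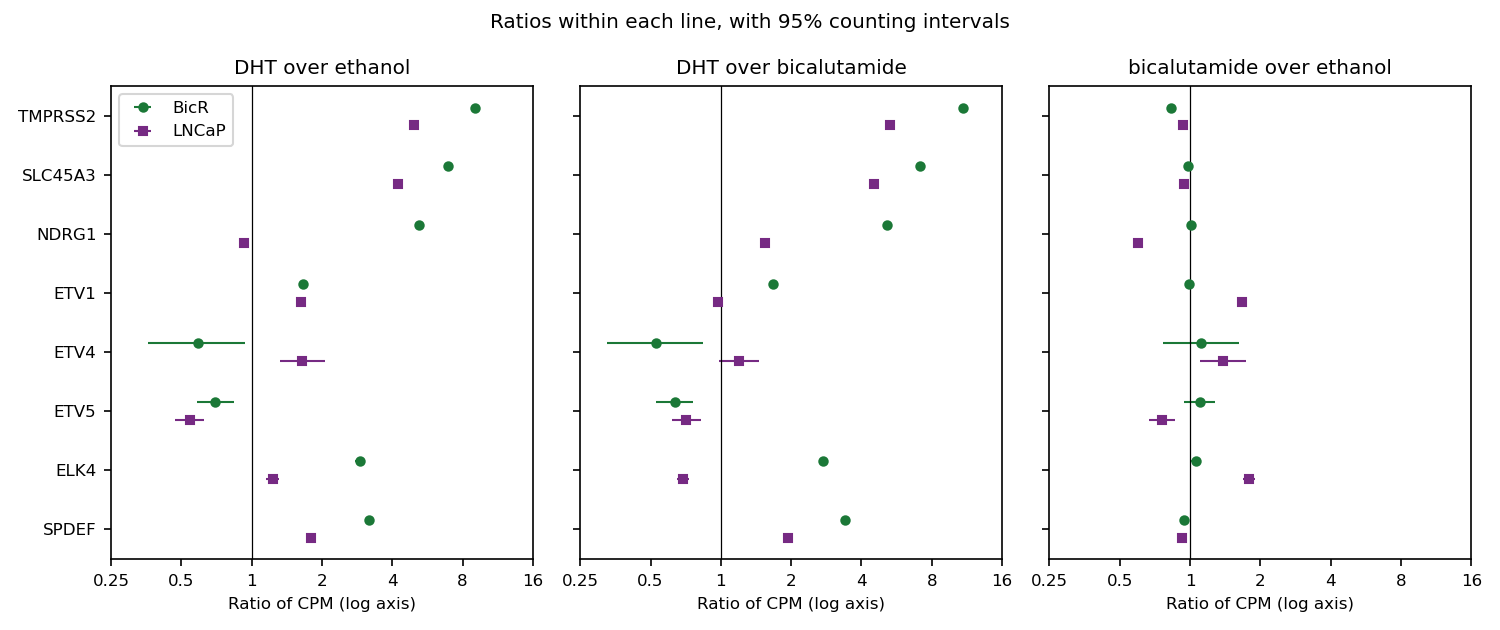
Ratios of CPM within each line for the 8 genes tested (horizontal log axes, vertical line at 1), DHT over ethanol, DHT over bicalutamide and bicalutamide over ethanol, with BicR as circles, LNCaP as squares and bars for 95% counting intervals. TMPRSS2, SLC45A3 and SPDEF lie above 1 for DHT in both lines, and NDRG1 lies at 5.21 in BicR and 0.924 in LNCaP over ethanol.

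Within a line, where 1 library stands for each treatment and no test is possible, the DHT library differed by at least 2-fold from the ethanol library for 5 of the 8 genes in BicR and 2 of the 8 in LNCaP, all of them higher. The 5 in BicR were TMPRSS2, SLC45A3, NDRG1, SPDEF and ELK4, where 1.45% of all genes tested were higher and 0.922% lower by that measure. The 2 in LNCaP were TMPRSS2 and SLC45A3, where 1.4% of all genes were higher and 1.19% lower. With the bicalutamide library in place of ethanol the counts were again 5 and 2, against 1.43% higher and 1.04% lower of all genes in BicR and 1.58% higher and 0.893% lower in LNCaP. By the size of the difference from ethanol TMPRSS2 ranked 12 from the top of 13885 genes in BicR and 9 in LNCaP, and SLC45A3 ranked 20 in BicR and 12 in LNCaP. NDRG1 ranked 35 in BicR and 9168 in LNCaP, and 41 and 1040 when set against the bicalutamide libraries.

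The DHT ratio of BicR was set over that of LNCaP for each gene as a description, since no interaction could be tested with 1 library a group. With ethanol libraries it was 5.64 for NDRG1 (counting interval 5.43 to 5.85), 2.35 for ELK4, 1.82 for TMPRSS2, 1.77 for SPDEF and 1.63 for SLC45A3. It was 1.29 for ETV5, 1.02 for ETV1 (0.982 to 1.07) and 0.357 for ETV4 (0.217 to 0.588). With bicalutamide libraries it was 3.32 for NDRG1, 3.99 for ELK4 and 1.72 for ETV1, and 2.04, 1.75 and 1.57 for TMPRSS2, SPDEF and SLC45A3. For ETV5 it was 0.89 (0.709 to 1.12), below 1 where the ethanol libraries gave a value above 1, and for ETV4 it was 0.443. Of the genes above 1.5 with ethanol, all 5 stayed above 1.5 with bicalutamide, and ETV1 joined them.

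None of the 8 genes changed with bicalutamide over both lines, and neither did any gene of the table (0% called in each direction). With no adjustment, 52 of 13885 genes were higher and 89 lower with an edgeR p under 0.05. Together they are under the share of 0.05 that such a threshold passes by chance alone. The fit treats a response of 1 line alone as error, so this share does not bear on responses within a line. After adjustment DESeq2 called 0 genes and limma on the authors' RPKM called 1. In BicR the ratios of bicalutamide over ethanol were near 1, at 0.832 for TMPRSS2 (0.801 to 0.865), 0.978 for SLC45A3, 1.01 for NDRG1 and 1.06 for ELK4. In LNCaP they were 0.932 for TMPRSS2 and 0.94 for SLC45A3, but 0.596 for NDRG1 (0.577 to 0.616), 1.67 for ETV1 (1.62 to 1.72) and 1.79 for ELK4 (1.69 to 1.90). None of the 8 genes differed by 2-fold in either line, against 0% of genes in BicR and, in LNCaP, 1.08% higher and 1.52% lower. These LNCaP ratios set the bicalutamide library, which lay nearer to BicR ethanol than to LNCaP ethanol, over the ethanol library, which stood apart. The part of either library in the ratios was not tested.

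Between the lines, over the 3 treatments, 1 of the 8 genes was higher in BicR and 1 was lower, against 1.58% higher and 2.84% lower over all genes tested. SLC45A3 was higher in BicR by 1.60 on the log2 scale (SE 0.21, edgeR adjusted p = 0.00573), at 4.15 times the LNCaP level under DHT, 2.64 times under bicalutamide and 2.54 times under ethanol. ETV4 was lower in BicR, with a log2 fold change of -1.76 (SE 0.35, edgeR adjusted p = 0.0312), at 0.157 times the LNCaP level under DHT, 0.354 times under bicalutamide and 0.439 times under ethanol. Both calls were lost when either bicalutamide library was left out, as were all others between the lines, and that of ETV4 also without the LNCaP DHT library. TMPRSS2 was 2.09 times as high in BicR under DHT but 1.02 times under bicalutamide and 1.15 times under ethanol, and its log2 fold change between lines was 0.43 (edgeR adjusted p = 0.271). ETV1 had a log2 fold change of -0.59 (adjusted p = 0.116 in edgeR), and that of NDRG1 was 0.65 (adjusted p = 0.348 in edgeR). Without the BicR ethanol or the LNCaP ethanol library NDRG1 (1.22 and 1.21) and ELK4 (0.99 and 0.98, against 0.90 over all 6) were higher in BicR past the threshold.

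**Figure D3:**
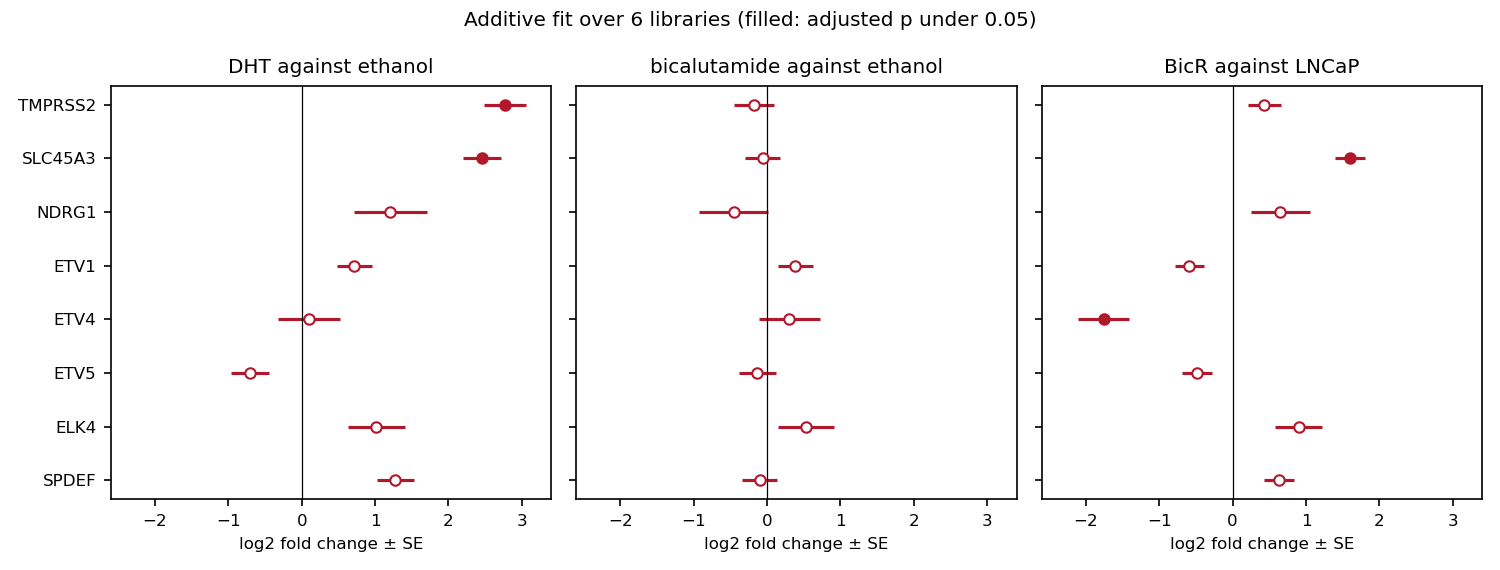
Log2 fold changes of the 8 genes tested in the additive edgeR fit over 6 libraries (horizontal axes, bars are SE), for DHT against ethanol, bicalutamide against ethanol and BicR against LNCaP, with filled points past an adjusted p of 0.05. Filled points are TMPRSS2 (2.77) and SLC45A3 (2.45) for DHT, and SLC45A3 (1.60) and ETV4 (-1.76) between the lines.

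Levels of different ETS genes were compared per length, on the authors' RPKM. All 28 ETS family genes looked up were in the table. By mean RPKM the order began with EHF at 82.4, SPDEF at 60.3, ELF3 at 24.5, ETV1 at 16.4, ELK1 at 15.7 and ELK4 at 12.5, with ERF at 8.89 and ELF1 at 8.06 behind. Of neighbours in this order, EHF and SPDEF overlapped in their ranges over the libraries, as did ELF3 and ETV1, ETV1 and ELK1, and ELK1 and ELK4, while every library of SPDEF lay above every library of ELF3 (12.1 to 33.0). EHF ranged over 54.4 to 110.6 RPKM and SPDEF over 33.8 to 140.0, while ETV1 ranged over 11.1 to 23.7 and ELK4 over 5.86 to 28.9. ETV5 was at place 16 with 1.19 RPKM and ETV4 at place 19 with 0.608, and ERG was last with 0.00669.

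EHF and ELF3, which are epithelial ETS factors, did not follow SPDEF. EHF stood at 614, 466 and 462 CPM in BicR under DHT, bicalutamide and ethanol, and at 322, 483 and 306 CPM in LNCaP. ELF3 stood at 60.2, 106 and 99.7 CPM in BicR and at 151, 128 and 166 CPM in LNCaP in the same order, lowest in BicR DHT. Of the 22 ETS genes other than the 6 named here, 18 were tested and none passed for DHT, bicalutamide or line, with a median log2 fold change of -0.13 for DHT. FEV, a neuronal ETS factor, had 207, 123 and 94 counts in BicR and 285, 132 and 132 counts in LNCaP under DHT, bicalutamide and ethanol. It was the only one of the 18 at 2-fold or more for DHT over ethanol in BicR. Over bicalutamide none of the 18 reached 2-fold there. Its log2 fold change of 1.21 with DHT did not pass (SE 0.31, edgeR adjusted p = 0.448).

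Of the summed RPKM of the 28 ETS genes, SPDEF took 37.5% in BicR DHT, 17.4% in BicR bicalutamide and 18.8% in BicR ethanol. In LNCaP it took 24.99% under DHT, 12.9% under bicalutamide and 16.5% under ethanol. The sum itself was 373 RPKM in BicR DHT and between 206 and 261 RPKM in the other 5 libraries. Thus the share of SPDEF was highest under DHT in each line, while the 22 other ETS genes summed to 186 RPKM in BicR DHT, against 181 RPKM in BicR ethanol.

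**Figure D4:**
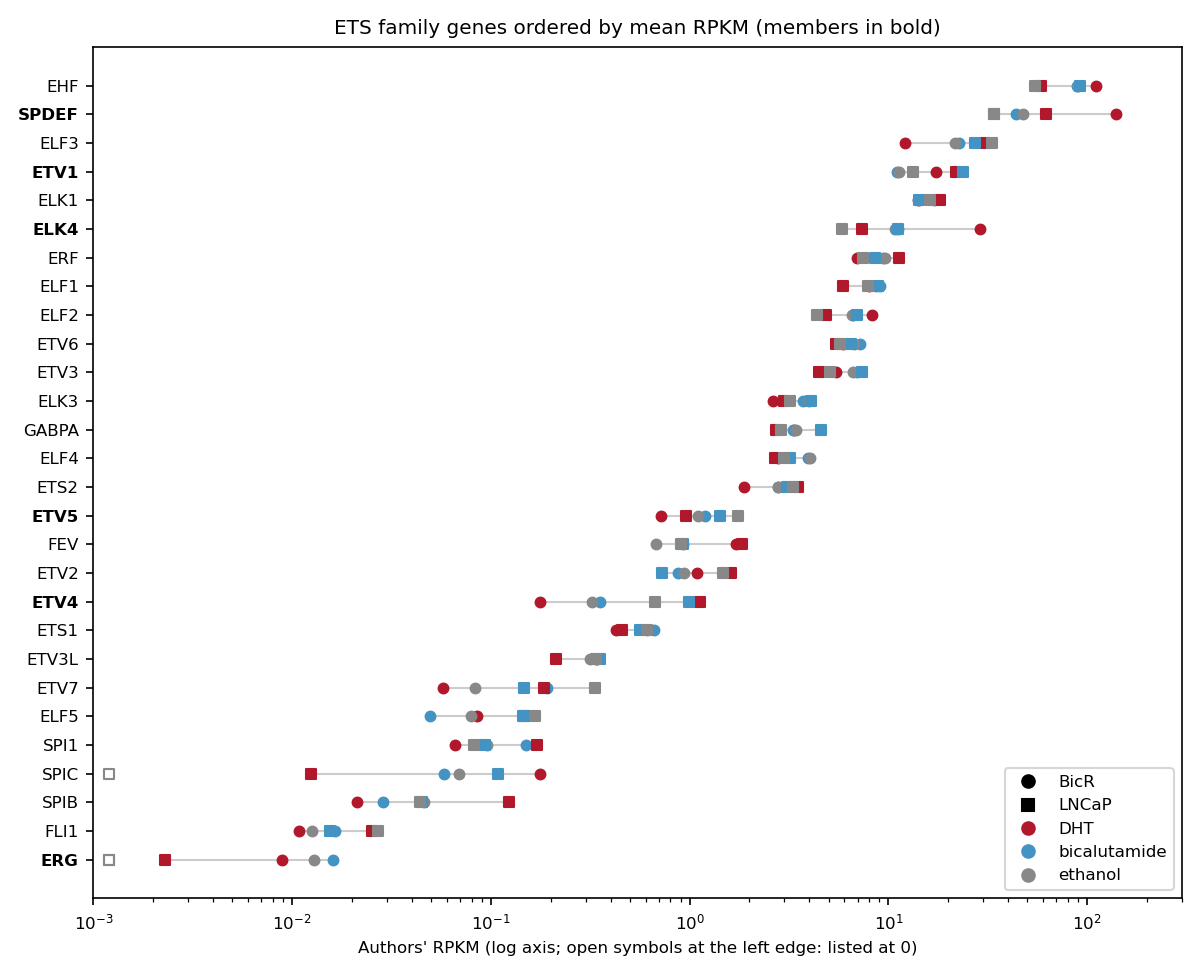
Authors' RPKM (horizontal log axis) of 28 ETS family genes, ordered from the highest mean at the top, 1 symbol a library, with BicR as circles, LNCaP as squares, colour for treatment and open symbols at the left edge for values listed at 0. SPDEF lies second with 33.8 to 140.0 RPKM, its BicR DHT point far to the right, and ERG lies last with at most 0.0161 RPKM.

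Other genes known as 5′ partners of ETS genes were read from a list of 13 that holds TMPRSS2, SLC45A3 and NDRG1, all of them tested. With DHT 3 of the 13 rose over both lines and none fell, against 0.158% higher and 0.0072% lower over all genes tested, namely TMPRSS2, SLC45A3 and KLK2. KLK2 encodes a secreted kallikrein protease close in sequence to KLK3, with which it may share reads. It stood at 3047 CPM in BicR DHT, 302 CPM in BicR bicalutamide and 298 CPM in BicR ethanol, and at 637, 88.3 and 121 CPM in LNCaP, and rose by 2.88 on the log2 scale (SE 0.29, edgeR adjusted p = 0.0135). ACSL3, a fatty acid ligase, stood at 1037 CPM in BicR DHT against 192 CPM in BicR ethanol, and at 188 CPM in LNCaP DHT against 140.1 CPM in LNCaP ethanol. FKBP5, a steroid receptor co-chaperone, stood at 712 CPM in BicR DHT against 56.5 CPM in BicR ethanol, and at 132 CPM in LNCaP DHT against 43.0 CPM in LNCaP ethanol. Neither ACSL3 (edgeR adjusted p = 0.635) nor FKBP5 (edgeR adjusted p = 0.1503) passed over both lines. HERPUD1, a gene of the endoplasmic reticulum stress response, stood at 296 CPM in LNCaP DHT and 250 CPM in LNCaP bicalutamide, against 714 CPM in LNCaP ethanol, the library in which HSPA5 was high. In BicR 6 of the 13 were higher under DHT by 2-fold, against 1.45% of all genes, and in LNCaP 4 were higher and 1 lower, against 1.4% and 1.19%.

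The PEA3 factors are degraded through the COP1 ubiquitin ligase and repressed by CIC, and they are activated through ERK signalling. None of 10 genes for these regulators passed for DHT. TRIB2, a pseudokinase of the tribbles family, was higher in BicR, with 233, 284 and 268 counts under DHT, bicalutamide and ethanol against 43, 27 and 59 counts in LNCaP (log2 fold change 2.78, SE 0.33, edgeR adjusted p = 0.00419). It was the only one of the 10 higher in BicR past the threshold, against 1.58% of all genes tested. Of 17 genes that ERK signalling is known to induce, 15 were tested, and 1 rose with DHT, against 0.158% of all genes tested. This was DUSP4, a phosphatase that turns off ERK, at 88.0, 32.5 and 33.8 CPM in BicR under DHT, bicalutamide and ethanol and at 170, 75.7 and 64.1 CPM in LNCaP (log2 fold change 1.39, SE 0.19, edgeR adjusted p = 0.033). The call was lost without the BicR DHT library (adjusted p = 0.159 in edgeR) and without either bicalutamide library (0.338 and 0.342). Within BicR 4 of the 15 were lower under DHT by 2-fold and 1 was higher, against 0.922% and 1.45% of all genes. Within LNCaP 2 were higher and none was lower, against 1.4% and 1.19%. In BicR DHT the related phosphatase gene DUSP5 was at 7.58 CPM against 21.6 CPM in ethanol, and EGR1 at 5.51 CPM against 18.9 CPM. In LNCaP DHT DUSP5 was at 28.2 CPM against 29.6 CPM in ethanol, and EGR1 at 16.5 CPM against 18.2 CPM. SPRY4, an ERK pathway inhibitor, had 228 counts in LNCaP DHT and 248 in LNCaP bicalutamide, against 70 counts in LNCaP ethanol.

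Genes linked to ERG or to ETS-driven invasion were low. Of 11 such genes 5 were tested, none passed for DHT, and 2 were lower in BicR than in LNCaP, against 2.84% of all genes tested. MMP7, a secreted metalloprotease, had 16, 23 and 23 counts in BicR under DHT, bicalutamide and ethanol, against 171, 86 and 88 counts in LNCaP (log2 fold change -2.27, SE 0.37, edgeR adjusted p = 0.0159). CRISP3, a secreted protein often raised in tumours with an ERG fusion, had 79, 36 and 42 counts in BicR, against 199, 227 and 179 counts in LNCaP (log2 fold change -1.87, SE 0.36, edgeR adjusted p = 0.0282). The summed level of the 11 genes was 17.7 to 21.99 CPM in every library.

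Genes of the secretory programme linked to SPDEF, mainly in mouse gut and airway, are given next. Of 9 such genes 5 were tested, none passed for DHT, and 2 were lower in BicR than in LNCaP, against 2.84% of all genes tested. CREB3L4, a secretory-pathway factor of the prostate, stood at 211 CPM in BicR DHT, 67.2 CPM in BicR bicalutamide and 62.9 CPM in BicR ethanol, and at 88.3, 53.4 and 53.6 CPM in LNCaP in the same order. AGR2, a disulfide isomerase of mucous cells, had 507, 153 and 136 counts in BicR, and 679, 428 and 4426 counts in LNCaP. The high AGR2 value was again in the LNCaP ethanol library. CREB3L1 was lower in BicR (9, 8 and 8 counts) than in LNCaP (196, 85 and 142 counts), with a log2 fold change of -3.87 (SE 0.37, edgeR adjusted p = 0.00181). TFF3, a trefoil peptide, was also lower in BicR, by a log2 fold change of -2.51 (SE 0.37, edgeR adjusted p = 0.0111).

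For each gene the most similar profiles were taken as those with the smallest root-mean-square difference of centred log2(CPM + 1) over the 6 libraries, a description with no test. For TMPRSS2 they were ST6GALNAC1 (0.24), PMEPA1 (0.30) and PGC (0.35), and for SLC45A3 they included TARP (0.15) and KLK2 (0.28). The 1 added to CPM flattens the changes of low genes, so similar profiles can hold unlike ratios. PGC, for example, stood at 17.3 CPM in BicR DHT and 0.326 CPM in BicR ethanol. TARP lies within the gamma T cell receptor locus, so its counts may include reads of overlapping genes.

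For SPDEF the most similar were CREB3L4 (0.09), TGM2 (0.13) and LOC100130872 (0.13), and for NDRG1 they were TBX15 (0.18), TBRG1 (0.22) and DBI (0.22). Of these, TGM2 and TBX15 were low genes. TGM2 stood at 3.55 CPM in BicR DHT and 0.269 CPM in BicR ethanol, and TBX15 at 6.06 and 0.346 CPM. For ELK4 the most similar were MPHOSPH9 (0.17), ACACA (0.18) and THRB (0.18). ACACA, the acetyl-CoA carboxylase of fatty acid synthesis, stood at 1505 CPM in BicR DHT, 689 CPM in BicR bicalutamide and 721 CPM in BicR ethanol, and at 510, 593 and 433 CPM in LNCaP, so that there too the bicalutamide library was the highest of LNCaP. For ETV1 they were PNPLA7 (0.11), EPHA7 (0.12) and RPS6KA3 (0.15), for ETV4 ICAM1 (0.09), SPRY1 (0.11) and ALDH3A1 (0.13), and for ETV5 RELL1 (0.05), FLNA (0.08) and FLJ23867 (0.08). The profiles of ETV1, ETV4 and ETV5 themselves spread less over the libraries (0.45, 0.61 and 0.35) than that of TMPRSS2 (1.37) or SLC45A3 (1.42), so small distances are easier to reach for them.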

How the data were processed

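RNA-seq libraries of total RNA from LNCaP and BicR cells were sequenced on the SOLiD 3 Plus system, per the labels' protocols. For every gene symbol the deposited table gives an untransformed read count and the RPKM the authors made, per the file headers. The submitters' processing notes name hg19. Which aligner, annotation and strand setting were used was not given in the sources used here. The genes described and the gene lists were chosen with earlier results of these data known.

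Groups came from the sample titles. Genes averaging 20 or more counts (13885 of 21512) were fitted with edgeR 4.0.16 in R 4.3.3: TMM scaling, cell line plus treatment, quasi-likelihood test, 2-sided, Benjamini-Hochberg adjustment over all 13885 genes, threshold 0.05. The fit had 2 residual and 6.8 prior degrees of freedom and treats a response of 1 line alone as error. No interaction could be tested. CPM are counts over TMM-scaled library sizes. Within a line, 2-fold means a difference of at least 1 in log2(CPM + 1), which understates changes of low genes. Ratios carry exact 95% intervals conditional on the summed count, and a count of 0 is read as up to 3 counts; both cover counting error only. RPKM served to compare genes.

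Alternatives were DESeq2 1.42.0, its size factors, limma 3.58.1 on log2(RPKM + 0.1), no filter, other pseudocounts, other libraries in place of ethanol, and each library left out. Named were the 9 genes, the 5 other ETS genes with the highest mean RPKM and any that passed or reached 2-fold, up to 4 genes of each list that passed or reached 2-fold, and the 3 most similar profiles of each tested gene. Some genes that this rule names are not reported here. Promoter windows are RefSeq's on GRCh38.p14 and were not used to place the hg19 counts.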

Additional observations from a re-analysis of the deposited data

Results flagged for a closer look

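The difference between the lines was not tested in the 4 results that follow, which were picked because BicR and LNCaP moved in opposite directions. NDRG1 had a ratio of DHT over ethanol of 5.21 in BicR and 0.924 in LNCaP. ETV4 had a ratio of DHT over ethanol of 0.589 in BicR and 1.65 in LNCaP. ETV1 had a ratio of DHT over bicalutamide of 1.68 in BicR and 0.972 in LNCaP. ELK4 had a ratio of DHT over bicalutamide of 2.75 in BicR and 0.689 in LNCaP. With the other library without DHT as the reference, the NDRG1 ratio in LNCaP was 1.55, that of ETV1 was 1.62 and that of ELK4 was 1.23, so for these 3 genes the opposite direction depended on the LNCaP library used. For ETV4 the ratio of DHT over bicalutamide was 0.53 in BicR and 1.19 in LNCaP.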

How the results depend on the processing

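Depth gave narrow counting intervals except for ETV4, ETV5 and ERG, and the limit on every call was 1 library for each line and treatment. No paired analysis was possible because the labels carry no replicate numbers and each group is 1 library; cell line was a term of the fit. With each library left out in turn, calls among the 8 genes ran from 0 to 5 for DHT, were 0 for bicalutamide and ran from 0 to 4 between lines, and calls over all genes ran from 0 to 275, 0 to 196 and 0 to 695. The 0 for DHT and line came from leaving out either bicalutamide library, and the cause was not tested. Each such refit holds the treatment of the library left out in a single line, so the lines' agreement on it was not tested there. By DESeq2 99 genes passed for DHT, against 77 with no filter, 49 against the mean of ethanol and bicalutamide, and 23 as reported; SPDEF was the gene added in each case. Between lines DESeq2 called 5 of the 8 genes (ELK4, ETV1 and SPDEF added) and 1490 in all, against 1360 with no filter and 614 as reported. For bicalutamide limma called 1 gene. How many of the 8 genes reached 2-fold within a line was the same under each pseudocount, with RPKM and, for DHT, with bicalutamide as the reference; of differences of single named genes within a line, 6 moved and 3 changed sign.

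Among fold changes that passed no test, some changed sign. With each library left out in turn, the log2 fold change of ETV4 with DHT ran from -0.68 to 0.64, and it was -0.055 against the mean of ethanol and bicalutamide. With bicalutamide the values ran from -0.50 to 0.10 for TMPRSS2, -0.24 to 0.14 for SLC45A3, -1.12 to 0.51 for NDRG1, -0.019 to 0.75 for ETV1, -0.12 to 0.74 for ETV4, -0.35 to 0.097 for ETV5, -0.26 to 1.12 for ELK4 and -0.31 to 0.12 for SPDEF. Between lines NDRG1 ran from -0.035 to 1.22. With bicalutamide as the LNCaP reference the log2 difference under DHT was 0.24 for HERPUD1, -0.15 for SPRY4 and 0.55 for AGR2. Of all fold changes tested under alternatives 317 kept their direction and side of the threshold, 16 newly passed, 52 no longer did and 17 changed sign.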
